A study of Mus musculus with 4 samples.

Results

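ATF4 amino-acid response genes are the genes that the transcription factor ATF4 is reported to control when a cell runs short of amino acids. A set of 39 such genes was read by symbol from the RNA-seq table of MC38 cells, in which all 39 were found among 26322 genes listed. The rule names genes by their place in the pathway and uses no value measured here. The set was nonetheless chosen with earlier results of these data known. It holds 2 regulators, 8 enzymes of asparagine, serine and folate metabolism, 5 enzymes of proline, cysteine and alanine metabolism, 7 stress and feedback targets, 9 amino-acid transporters and 8 aminoacyl-tRNA synthetases. The question asked of it was whether these transcripts differed between control cells and tumour cells edited at Cbfb. This gene encodes CBFβ, the partner protein that stabilises RUNX transcription factors on DNA. RNA does not measure the protein, whose loss in MC38 cells the paper checked by immunoblot. MC38 is a mouse tumour line labelled as colorectal cancer. The sgNT cells had been electroporated with Cas9 protein and a non-targeting guide, and the sgCbfb cells with Cas9 protein and a guide against Cbfb, at least a week before RNA was collected. Each group had 2 libraries, both groups had gone through electroporation with Cas9, and the labels name no treatment with TNF or T cells. The edited cells were made with a single guide, and the paper describes no cloning step. The labels do not say whether replicates came from separate cultures, so p-values measure the spread between these samples, which may be technical.

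ATF4 is a basic leucine zipper (bZIP) transcription factor of the integrated stress response. When uncharged tRNA activates the kinase GCN2, eIF2 is phosphorylated, most translation slows, and translation of the ATF4 mRNA is favoured through its upstream reading frames, so that ATF4 protein can change with little change in its mRNA. ATF4 then binds, with partners such as C/EBP proteins, to a composite C/EBP-ATF element and raises genes that make, import and charge amino acids, together with stress genes that restrain growth or feed back on the response. Tumour cells use the same genes to supply asparagine, serine, glycine and cystine.

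The element itself could be read at the starts of these genes. RefSeq promoter windows on GRCm38.p6, from 250 bases before to 50 after each annotated start, were at hand for 31 of the 39 members (37 windows). The letters TGATGNAA, or TTNCATCA on the other strand, were present for 11 of these 31 genes (35.5%), against 4.51% of the 27025 genes with a window and 2.7% of the 9324 such genes tested here. The 11 were Asns, Pycr1, Chac1, Trib3, Nupr1, Vldlr, Slc7a11, Slc1a4, Aars, Gars and Yars. Some of these elements helped to define the pathway, so the share describes the set. The stretches below show the element, in capitals, in an enzyme, a transporter and a synthetase gene and in 3 stress and feedback targets, among them Trib3 and Vldlr, to which the measurements return. Each is written 5′ to 3′ on the strand of its gene. Asns, the asparagine synthetase gene, carries it 23 to 16 bases before its start (chr6:7693214-7693243, minus strand). Slc7a11, the cystine transporter gene, carries it once on each strand (chr3:50443646-50443705, minus strand). Gars, the glycyl-tRNA synthetase gene, carries it on the other strand, 30 to 23 bases before its start (chr6:55037945-55038000, plus strand). Chac1 (chr2:119351023-119351082, plus strand), Trib3 (chr2:152344028-152344057, minus strand) and Vldlr (chr19:27216809-27216838, plus strand) also carry it on the other strand. In Trib3 it lies after the start, at bases 15 to 22, and in Chac1 and Vldlr before it.
Asns: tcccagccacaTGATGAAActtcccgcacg
Slc7a11: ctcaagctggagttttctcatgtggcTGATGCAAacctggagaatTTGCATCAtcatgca
Gars: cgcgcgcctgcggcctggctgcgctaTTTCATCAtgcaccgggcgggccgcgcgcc
Chac1: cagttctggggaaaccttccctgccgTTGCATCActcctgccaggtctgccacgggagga
Trib3: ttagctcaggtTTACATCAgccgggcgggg
Vldlr: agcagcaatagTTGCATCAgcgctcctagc

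The libraries were made from the 3′ ends of mRNA, where a long transcript yields no more reads than a short one, and levels were compared between genes on that basis. The deposited values are log2 CPM, that is, reads divided by the total of their library and put on a log scale, and whole reads could be recovered from them, from 3189035 to 3907936 per library. A single read was worth 0.256 to 0.314 CPM. Tests were made with limma on the log2 values of 12207 genes, two-sided, with Benjamini-Hochberg adjustment over all of them, and a gene was called at an adjusted p-value under 0.05. An exact permutation test of 2 libraries against 2 cannot give a p-value under 0.333, so calls rest on the spread that limma shares between genes. Cbfb, the edited gene, held 295 and 285 reads in sgNT and 125 and 125 in sgCbfb, and its log2 fold change was -1.27 (standard error, SE, 0.12, limma adjusted p = 1.76e-07). Without either sgCbfb library the log2 fold change was -1.41 to -1.12, and the adjusted p of 0.193 to 0.267 did not pass. Over all tested genes 192 were higher and 153 lower in sgCbfb, so that higher genes made up 55.7% of the calls, against 48.4% when each library was centred on its median, 47% after quantile normalisation and 42.6% with voom and median scaling. All tested genes together had a median log2 fold change of 0.04. Defining epithelial markers were at or near 0: of 10 colon epithelial genes, 4 (Krt18, Cdx1, Vil1 and Muc2) had 0 reads in every library, and the summed level was 1.57 to 1.80 CPM, with at most 1 read of Epcam and 2 of Cdh1. Of 7 immune genes, 6 were at 0 in every library, the exception being 1 read of Ptprc. Of 6 fibroblast genes, 1 (Thy1) was at 0 and the summed level was 66.6 to 72.1 CPM in sgNT and 80.3 to 83.7 CPM in sgCbfb. Of this list Pdgfra had 121 and 91 reads in sgNT and 169 and 152 in sgCbfb, and Dcn had 110 and 115 in sgNT and 116 and 95 in sgCbfb. The part of these genes in the results was not tested. The ribosomal RNA gene Rn45s took 11.3% to 13.9% of the reads.

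As a set, the ATF4 genes differed little between sgNT and sgCbfb cells. Of the 39, 37 had enough reads to be tested, 1 was higher in sgCbfb (Ddit4), 1 was lower (Slc6a9) and 35 passed in neither direction. The 1 higher gene is 2.7% of those tested, against 1.57% of all tested genes, and the 1 lower gene is also 2.7%, against 1.25%. Each share rests on a single gene. An unadjusted p under 0.05 was reached by 6 members (16.2%), 3 higher and 3 lower, against 14.9% of all tested genes. The untested members were Cbs, which makes cystathionine in the route from homocysteine to cysteine, and Slc7a3, a cationic amino-acid transporter. Cbs had 0 reads in every library, which allows a level of up to 0.768 to 0.941 CPM by counting error alone, and Slc7a3 had 1 and 0 reads in sgNT and 0 and 1 in sgCbfb. Among the 37 tested members the median log2 fold change was -0.02, with 16 above 0 (43.2%, against 57% of all tested genes) and 21 below (56.8%, against 43%), and the range was -0.64 to 0.50. Over all tested genes the 5th and 95th percentiles were -0.52 and 0.71. The members had a median level of 6.50 log2 CPM against 4.40 for all tested genes. For 24 of the 37 (64.9%) the 95% interval of the log2 fold change lay within 0.5 of 0 on both sides, against 40.9% of all tested genes. In sum the members took 0.631% and 0.631% of the reads in sgNT and 0.634% and 0.615% in sgCbfb, and the groups overlapped. In bulk cultures like these, fewer cells that express a gene and less RNA per cell cannot be told apart.

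**Figure D1:**
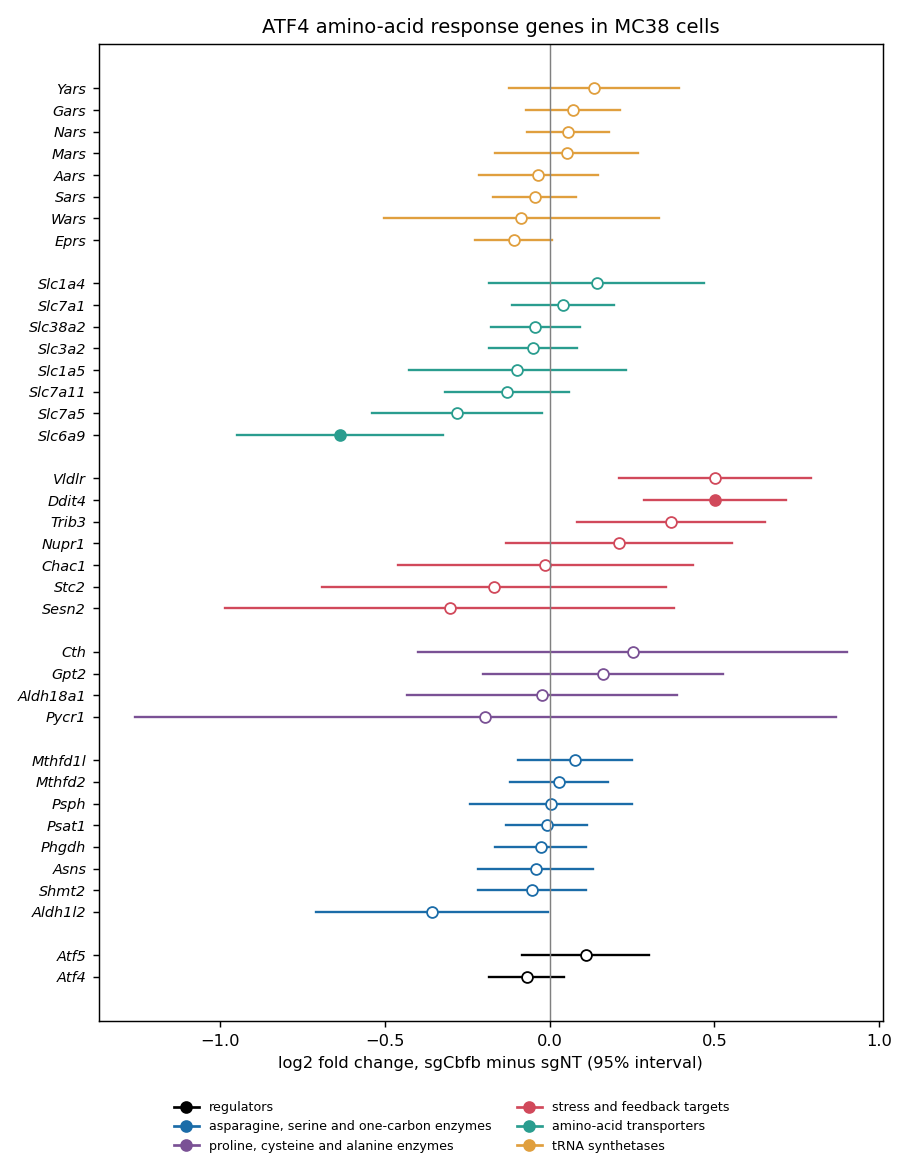
Log2 fold change (sgCbfb minus sgNT, horizontal axis) of the 37 tested members by role, with points for the limma estimates and bars for 95% intervals from 2 libraries a group. Filled points passed an adjusted p of 0.05, which only Ddit4 (0.50) and Slc6a9 (-0.64) did, and most enzymes and tRNA synthetases lie close to 0 with short bars.

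Counted by whether both sgCbfb libraries lay outside the range of both sgNT libraries, 7 members were higher (18.9%, against 27.4% of all tested genes) and 11 were lower (29.7%, against 16.8%). The 7 were Ddit4, Vldlr, Trib3, Nupr1, Mthfd1l, Slc7a1 and Gars. The 11 were Atf4, Asns, Aldh1l2, Sesn2, Stc2, Slc7a11, Slc7a5, Slc38a2, Slc6a9, Sars and Eprs. For 4 of the lower members (Atf4, Asns, Slc38a2 and Sars) the log2 fold change lay between -0.07 and -0.04, and for the other 7 it ran from -0.64 (Slc6a9) to -0.11 (Eprs).

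The regulators come first. Atf4 (chr15:80255184-80257541, plus strand, GRCm38) was the most abundant member, with 2780 and 2779 reads in sgNT and 3141 and 2458 in sgCbfb. Scaled to library size its levels were 9.68 and 9.70 log2 CPM in sgNT and 9.65 and 9.59 in sgCbfb. Both sgCbfb libraries lay just below both sgNT libraries. Means were 9.69 ± 0.018 for sgNT and 9.62 ± 0.043 for sgCbfb (SD, n = 2 each), and the log2 fold change was -0.07 (SE 0.055, 95% interval -0.18 to 0.04, adjusted p = 0.617 from limma). Only the mRNA was measured, not the protein. Atf5, a related bZIP factor that is also translated under stress, had 366 and 347 reads in sgNT and 416 and 391 in sgCbfb. Its log2 fold change was 0.11 (95% interval -0.08 to 0.30, adjusted p = 0.653 from limma), and its groups overlapped. No TGATGNAA letters were present in the windows of Atf4 or Atf5.

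**Figure D2:**
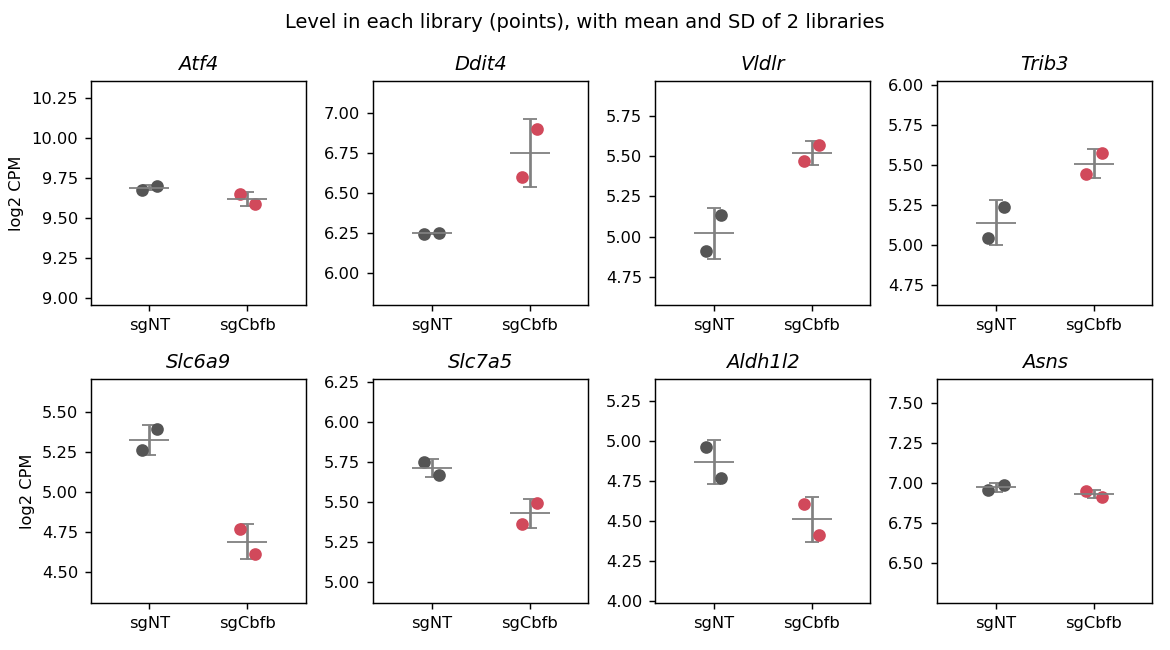
Level in log2 CPM (vertical axes, each spanning the same width) in the 2 sgNT and 2 sgCbfb libraries for Atf4, the 6 members with an unadjusted p under 0.05 and Asns, the last as an example of the enzymes. Points are libraries and bars the mean and SD of 2; the groups do not overlap in any of the 8 panels, and the gap is widest for Slc6a9 and narrowest for Atf4 and Asns.

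The stress and feedback targets held the upper end of the set. Of these 7 genes, 1 (Ddit4) was higher in sgCbfb (14.3%, against 1.57% of all tested genes) and 6 were not called, the median log2 fold change was 0.21 and the range was -0.30 to 0.50. Together they took 0.0194% and 0.021% of the reads in sgNT and 0.025% and 0.0269% in sgCbfb, so that both sgCbfb libraries lay above both sgNT libraries. Ddit4 supplied the largest part of that sum. The groups separated upwards for 4 of the 7 genes (Ddit4, Vldlr, Trib3 and Nupr1; 57.1%, against 27.4% of all tested genes) and downwards for 2 (Sesn2 and Stc2; 28.6%, against 16.8%), and in Chac1 they overlapped. The group itself was not tested.

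Ddit4 (chr10:59949669-59951834, minus strand, GRCm38) encodes REDD1, an inhibitor of mTORC1 that is also induced by low oxygen and glucocorticoids. It had 256 and 252 reads in sgNT and 377 and 379 in sgCbfb, or 75.4 and 75.6 CPM against 96.5 and 119 CPM. The sgNT libraries were nearly equal, the sgCbfb libraries differed from each other, and the lower of these still lay above both sgNT libraries. Mean log2 CPM was 6.25 ± 0.0024 for sgNT and 6.75 ± 0.21 for sgCbfb (SD, n = 2 each). Ddit4 rose by 0.50 on the log2 scale, to 142% of the sgNT level (SE 0.10, 95% interval 0.29 to 0.72, adjusted p = 0.00536 from limma). It ranked 164 by p-value among all tested genes. Leaving out any 1 of the 4 libraries ended the call, with a log2 fold change from 0.35 to 0.65. The call was also lost with quantile normalisation (limma adjusted p = 0.209) and without the mean-variance trend (0.362). Cbfb lost its call too without the trend and without either sgCbfb library, so those losses are not particular to Ddit4. The RUNX core was searched as TGTGGT, which on the other strand is spelled ACCACA. The Ddit4 window held neither this core nor the C/EBP-ATF letters. Its upstream sequence is shown because it belongs to the only member that passed upwards, and it lies 164 to 65 bases before the RefSeq start (chr10:59951835-59951934, minus strand).
Ddit4: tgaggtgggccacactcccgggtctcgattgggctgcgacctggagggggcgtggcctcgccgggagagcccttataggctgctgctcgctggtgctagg

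Vldlr, a receptor for lipoproteins and reelin that is reported as an ATF4 target under stress, lay just outside the threshold. It had 100 and 115 reads in sgNT and 171 and 150 in sgCbfb, or 29.4 and 34.5 CPM against 43.8 and 47.0 CPM. Both sgCbfb libraries lay above both sgNT libraries. The log2 fold change of Vldlr was 0.50 (SE 0.14, 95% interval 0.21 to 0.79), and the adjusted p was 0.0529 from limma. It was called with a minimum of 5 CPM (limma adjusted p = 0.0201), with vooma weights (0.0479), with voom on library totals (0.0362) and with the replicate number as a block (0.0182), and the adjusted p ranged from 0.0182 to 0.551 over all 14 alternatives.

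Trib3, a pseudokinase that is induced by ATF4 and feeds back on it, had 110 and 124 reads in sgNT and 168 and 150 in sgCbfb. Its levels were 32.4 and 37.2 CPM in sgNT and 43.0 and 47.0 CPM in sgCbfb, and the groups did not overlap. Trib3 differed by 0.37 on the log2 scale (SE 0.14, 95% interval 0.08 to 0.65, unadjusted p = 0.0133, adjusted p = 0.176 from limma). The other stress genes did not pass. Chac1, which degrades glutathione and is among the genes most sharply induced by ATF4, had 49 and 64 reads in sgNT and 72 and 47 in sgCbfb, with a log2 fold change of -0.01 (95% interval -0.46 to 0.43). Nupr1, a small stress-induced chromatin protein gene, had a log2 fold change of 0.21 (95% interval -0.13 to 0.55). Stc2, which encodes a secreted glycoprotein, had one of -0.17 (95% interval -0.69 to 0.35). Sesn2, the leucine sensor that restrains mTORC1, had 21 and 21 reads in sgNT and 16 and 19 in sgCbfb and a log2 fold change of -0.30 (95% interval -0.98 to 0.38). The intervals of Stc2 and Sesn2 reached below -0.5, so a fall of the size by which Ddit4 rose could not be told from none in these 2 genes, while their upper bounds, and both bounds of Chac1, lay within 0.5 of 0.

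Among the transporters the only member that passed downwards was found. Of the 8 tested, 1 was lower in sgCbfb (Slc6a9; 12.5%, against 1.25% of all tested genes), 7 were not called, the median log2 fold change was -0.07, and 6 were below 0 (75%, against 43%). Transporter reads made up 0.126% and 0.121% of the sgNT libraries and 0.119% and 0.118% of the sgCbfb libraries, and the groups did not overlap. The libraries of 4 genes (Slc7a11, Slc7a5, Slc38a2 and Slc6a9) separated downwards (50%, against 16.8% of all tested genes) and those of 1 (Slc7a1) upwards (12.5%, against 27.4%). The transporters as a group were not tested.

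Slc6a9 (chr4:117834506-117875198, plus strand, GRCm38) encodes GLYT1, a sodium-driven importer of glycine. It had 128 and 138 reads in sgNT and 104 and 76 in sgCbfb, or 37.7 and 41.4 CPM against 26.6 and 23.8 CPM. Both sgCbfb libraries lay well below both sgNT libraries. Mean log2 CPM was 5.32 ± 0.094 for sgNT and 4.69 ± 0.11 for sgCbfb (SD, n = 2 each). Slc6a9 fell by 0.64 on the log2 scale, to 64.3% of the sgNT level (SE 0.15, 95% interval -0.95 to -0.32, adjusted p = 0.0163 from limma). Leaving out any 1 of the 4 libraries ended this call too (log2 fold change from -0.72 to -0.56), as did quantile normalisation (limma adjusted p = 0.123) and a fit without the mean-variance trend (0.237). The losses without the trend and without either sgCbfb library were shared by Cbfb and are not particular to Slc6a9. The annotation places the opposite-strand genes Ccdc24, B4galt2 and Gm17114 across parts of Slc6a9, with 1429, 46 and 511 shared exon bases. None of the shared bases lies in the last 500 bases of the annotated gene. Whether any of its 12 annotated transcripts that end earlier put reads in the shared parts was not examined, and the use of strand in the counting is not given. No C/EBP-ATF letters were present in its 3 windows, and RUNX core letters were present in 2 of them. The stretch from the third window is shown because Slc6a9 was the only member that passed downwards and CBFβ is the RUNX partner, with the core in capitals 103 to 98 bases before the start (chr4:117855418-117855475, plus strand). Core letters were held by 3 of the 31 members with a window (9.68%: Slc6a9, Shmt2 and Slc3a2), against 18.9% of all genes with a window and 14.5% of those tested here.
Slc6a9: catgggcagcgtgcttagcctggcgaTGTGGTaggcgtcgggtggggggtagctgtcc

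Slc7a5, the LAT1 subunit that exchanges large neutral amino acids such as leucine, had 181 and 168 reads in sgNT and 159 and 142 in sgCbfb. The levels were 53.3 and 50.4 CPM in sgNT and 40.7 and 44.5 CPM in sgCbfb, without overlap. The log2 fold change of Slc7a5 was -0.28 (SE 0.13, 95% interval -0.54 to -0.02, unadjusted p = 0.0348, adjusted p = 0.282 from limma). Slc3a2, the heavy chain that carries LAT1 and the cystine transporter to the membrane, was the most abundant transporter gene at a mean log2 CPM of 8.86 ± 0.11 for sgNT and 8.81 ± 0.019 for sgCbfb (SD, n = 2 each), and differed by -0.05 on the log2 scale (95% interval -0.18 to 0.08). Slc7a11, the cystine and glutamate exchanger xCT, had a mean log2 CPM of 6.76 ± 0.088 for sgNT and 6.63 ± 0.014 for sgCbfb (SD, n = 2 each), and the interval of its log2 fold change ran from -0.32 to 0.06. The importers of arginine and lysine (Slc7a1, log2 fold change 0.04), of small neutral amino acids (Slc38a2, -0.04), of alanine and serine (Slc1a4, 0.14) and of glutamine (Slc1a5, -0.10) lay within 0.15 of 0, with intervals that spanned 0.

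The enzymes of asparagine, serine and folate metabolism differed little between the groups, and most were measured with short intervals. None of the 8 was called in limma and 1 (Aldh1l2) had an unadjusted p under 0.05. The median log2 fold change was -0.02 and the range was -0.36 to 0.08. The group took 0.169% and 0.168% of the reads in sgNT and 0.171% and 0.164% in sgCbfb. Asns, which makes asparagine and is the classic ATF4 target, had 419 and 422 reads in sgNT and 480 and 382 in sgCbfb, or 123 and 127 CPM against 123 and 120 CPM. The log2 fold change of Asns was -0.04 (95% interval -0.22 to 0.13, adjusted p = 0.877 from limma). The serine synthesis enzymes follow each other in the route from glycolysis, and none departed from the sgNT level by more than 0.03 on the log2 scale. Phgdh, the first of them, had 1036 and 1083 reads in sgNT and 1215 and 978 in sgCbfb (log2 fold change -0.03, 95% interval -0.16 to 0.11). Psat1, the transaminase, had 2004 and 1969 reads in sgNT and 2381 and 1801 in sgCbfb (log2 fold change -0.01, 95% interval -0.13 to 0.11). Psph, the phosphatase, had a log2 fold change near 0 (0.0041, 95% interval -0.24 to 0.25), whose sign turned under other scalings. The mitochondrial enzymes that take serine to formate were likewise near 0: Shmt2 at -0.05, Mthfd2 at 0.03 and Mthfd1l at 0.08. Within the last 500 bases of its annotated gene Shmt2 shares 32 exon bases with Ndufa4l2 on the opposite strand, which had 0 reads in every library. Aldh1l2, which makes NADPH by oxidising formyl-tetrahydrofolate in mitochondria, had 104 and 89 reads in sgNT and 93 and 66 in sgCbfb. The groups did not overlap, at 30.6 and 26.7 CPM against 23.8 and 20.7 CPM. Its log2 fold change was -0.36 (SE 0.17, 95% interval -0.71 to -0.0048, unadjusted p = 0.0472, adjusted p = 0.327 from limma). The last 500 bases of the annotated Aldh1l2 gene lie wholly across exons of D10Wsu102e on the opposite strand. D10Wsu102e had 268 and 240 reads in sgNT and 287 and 216 in sgCbfb. The use of strand in the counting is not given in the sources used here.

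The enzymes of proline, cysteine and alanine metabolism were the least abundant group. Of the 4 tested none was called in limma, none had an unadjusted p under 0.05, and all 4 overlapped between groups. Aldh18a1, which opens proline synthesis, had a log2 fold change of -0.02 (95% interval -0.43 to 0.39). Pycr1, which closes it, had only 3 and 2 reads in sgNT and 2 and 2 in sgCbfb, so that its interval ran from -1.26 to 0.87. Cth, which releases cysteine from cystathionine, had a log2 fold change of 0.25 (95% interval -0.40 to 0.90). Gpt2, the mitochondrial alanine aminotransferase, had one of 0.16 (95% interval -0.20 to 0.53).

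The aminoacyl-tRNA synthetases, which charge tRNA with amino acids, were spread narrowly around 0. None of the 8 was called in limma, none had an unadjusted p under 0.05, 4 were above 0 and 4 below, and the log2 fold changes ran only from -0.11 to 0.13. They took 0.218% and 0.221% of the reads in sgNT and 0.222% and 0.211% in sgCbfb. Eprs, the enzyme for glutamate and proline, was the most abundant of them, with 2422 and 2476 reads in sgNT and 2699 and 2103 in sgCbfb. Its level was lower in both sgCbfb libraries, with a log2 fold change of -0.11 (95% interval -0.23 to 0.0085, adjusted p = 0.384 from limma). Yars, for tyrosine, lay at the other end (0.13, 95% interval -0.12 to 0.39). Between them lay Gars (0.07) for glycine, Nars (0.06) for asparagine, Mars (0.05) for methionine, Aars (-0.03) for alanine, Sars (-0.04) for serine and Wars (-0.09) for tryptophan. Aars shares the last 500 bases of its annotated gene with Exosc6 on the same strand, so reads there cannot be divided between these genes. Within the last 500 bases of the annotated gene Mars also overlaps Ddit3 by 68 exon bases and Yars overlaps C77080 by 30, both on the opposite strand.

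**Figure D3:**
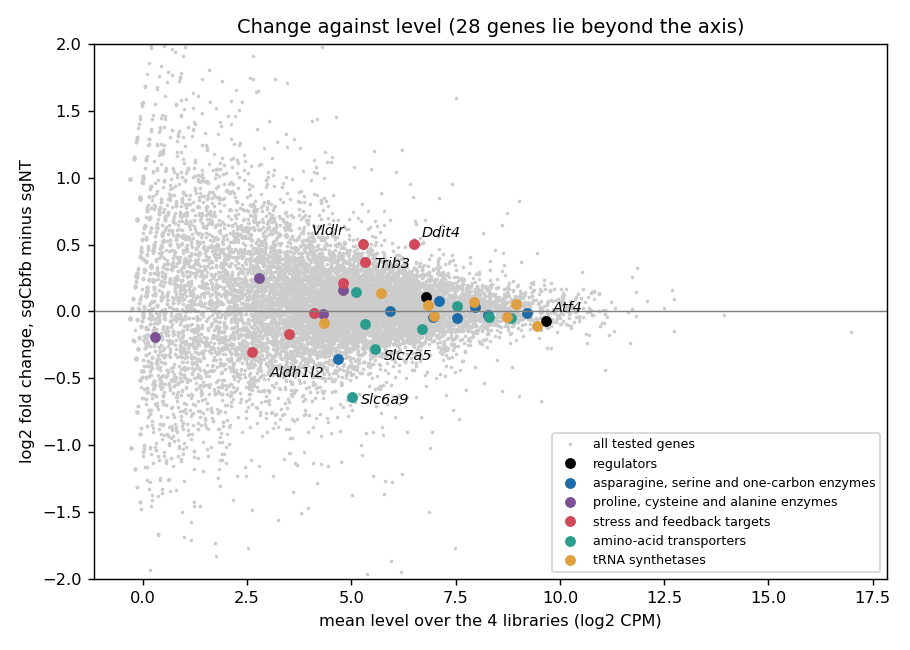
Log2 fold change (sgCbfb minus sgNT, vertical axis) against the mean log2 CPM over the 4 libraries (horizontal axis) for the 12207 tested genes in grey and the 37 tested members coloured by role, with 28 genes beyond the axis. The median level of the members is 6.50 log2 CPM, against 4.40 for all tested genes, though some members, such as Pycr1 and Sesn2, lie to the left; Ddit4 and Vldlr lie at 0.50 and Slc6a9 at -0.64.

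Members with the C/EBP-ATF letters in a window did not stand at one end of the set. The 11 genes, all tested, had a median log2 fold change of 0.07, with 6 above 0 and 5 below and none called, and ran from -0.19 (Pycr1) to 0.50 (Vldlr). The 19 tested genes whose windows lacked the letters had a median of -0.03, with 7 above 0 and 12 below, and included both called members. The other 7 tested members had no window to read, with a median of -0.09, 3 above 0 and 4 below. These are descriptions without a test.

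Other parts of the pathway were read from 8 lists of related genes, beside which the shares over all tested genes are 1.57% called higher, 1.25% called lower and 14.9% with an unadjusted p under 0.05. Upstream of ATF4, of 16 tested genes for eIF2 kinases, eIF2 and eIF2B subunits, phosphatase subunits and GCN2 partners, 0 were called in limma, 2 (12.5%) had an unadjusted p under 0.05 and the median log2 fold change was -0.05. The groups separated upwards for 3 of these genes (18.8%, against 27.4% of all tested genes) and downwards for 6 (37.5%, against 16.8%), the list itself was not tested, and Eif2s2 was called higher in 1 of the 14 alternatives. Eif2ak4, which encodes GCN2, had 71 and 75 reads in sgNT and 84 and 81 in sgCbfb, with a log2 fold change of 0.11 (95% interval -0.26 to 0.48). Of 18 tested genes among other reported ATF4 targets, 0 were called in limma, 3 (16.7%) had an unadjusted p under 0.05 and the median was -0.02. Of the 16 other cytosolic synthetases and their scaffold proteins 0 were called in limma, with 1 (6.25%) at an unadjusted p under 0.05 and a median of -0.03. Of 19 tested amino-acid transporters outside the set 0 were called in limma, 0 had an unadjusted p under 0.05 and the median was -0.01.

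The bZIP partners and rivals of ATF4 were the only one of the 8 lists with a called gene in this fit. Of 16 tested, 0 were higher and 2 were lower in sgCbfb (12.5%, against 1.25% of all tested genes). This list, like the others, was chosen with earlier results of these data known, so its shares only describe it. In the same list 5 had an unadjusted p under 0.05 (31.2%, against 14.9%), all of them lower, and 13 lay below 0 (81.2%, against 43%), with a median of -0.13; the list itself was not tested. The number called lower ran from 0 to 4 over the 14 alternatives, in which Nfe2l2 was called in 7 and Atf6 in 2. Cebpb, a C/EBP factor that can pair with ATF4, had 272 and 328 reads in sgNT and 189 and 198 in sgCbfb, without overlap of the groups. It fell by 0.69 on the log2 scale, to 62.0% of the sgNT level (SE 0.12, adjusted p = 0.00126 from limma). Jun, an AP-1 subunit, had 797 and 775 reads in sgNT and 724 and 559 in sgCbfb, and fell by 0.37 (SE 0.073, adjusted p = 0.00307 from limma). Over the 4 fits with a library left out, the Cebpb call was lost without sgNT replicate 2 and without either sgCbfb library. The Jun call was lost without sgNT replicate 1 and without either sgCbfb library. Without either sgCbfb library, and without the mean-variance trend, Cbfb lost its call too, so those losses are not particular to Cebpb or Jun. Both calls were also lost with quantile normalisation (limma adjusted p = 0.175 for Cebpb and 0.0584 for Jun) and without the mean-variance trend (0.351 and 0.352), and over all alternatives the adjusted p ran from 1.43e-07 to 0.551 for Cebpb and from 0.000209 to 0.511 for Jun. Cebpg, the C/EBP partner most often named with ATF4 at amino-acid genes, had 296 and 294 reads in sgNT and 296 and 289 in sgCbfb (log2 fold change -0.08, 95% interval -0.29 to 0.13). Ddit3, which encodes CHOP and is itself an ATF4 target, had 122 and 147 reads in sgNT and 175 and 151 in sgCbfb (log2 fold change 0.21, 95% interval -0.07 to 0.49).

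**Figure D4:**
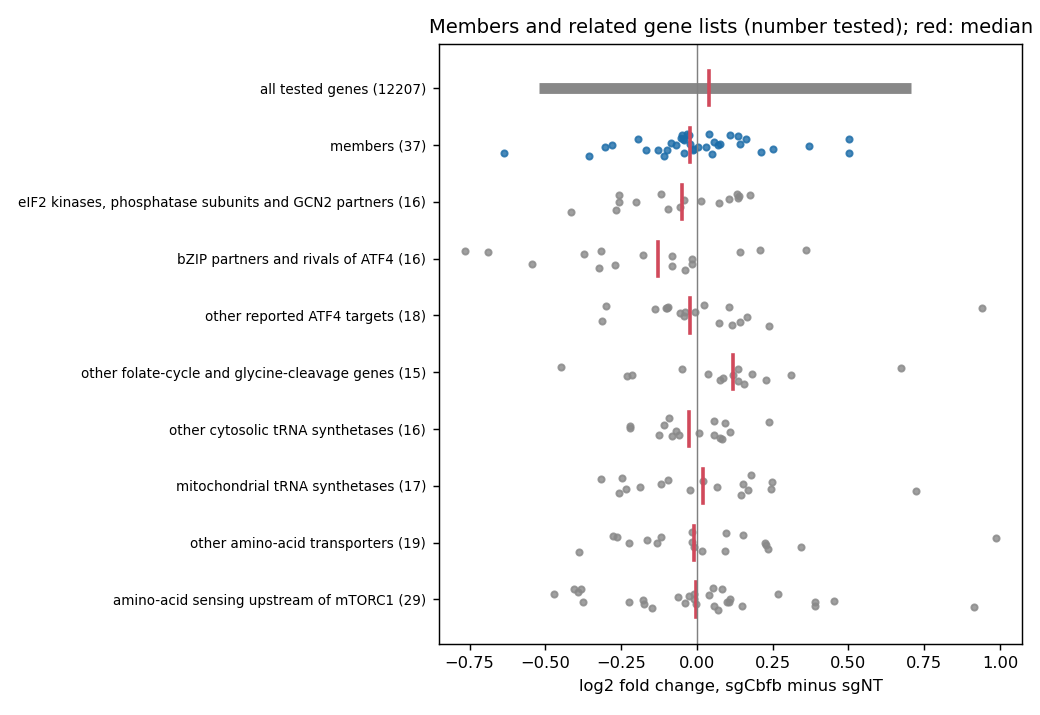
Log2 fold change (sgCbfb minus sgNT, horizontal axis) of single genes (points) in the set of 37 tested members and in 8 related lists, with the number tested in brackets and red lines for medians; the grey bar spans the 5th to 95th percentile of all tested genes, -0.52 to 0.71. Medians lie close to 0 (members -0.02), with bZIP partners and rivals lowest at -0.13 and folate-cycle genes highest at 0.12.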

How the data were processed

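MC38 cells with a non-targeting guide (sgNT, labelled WT) or a Cbfb guide (sgCbfb, labelled CbfbKO) were profiled in 2 libraries each by 3′ mRNA sequencing, grouped by their labels. A further replicate of each group is described as left out by the submitters for poor RNA. The authors used cutadapt 1.9 for trimming, HISAT2 2.1.0 for alignment to GRCm38 (mm10) and featureCounts for counting (versions from the submitters' processing notes, which for featureCounts differ from the paper, so none is given). Annotation release, strand and treatment of multi-mapping reads are not given in the sources used here, and could change genes with overlaps or processed copies. The authors deposited log2 CPM, whose lowest value, -0.79, implies a prior count of 2. Reads were recovered from these values (100% within 0.1 of a whole number), from 3189035 to 3907936 per library. They were used for depth and for the voom alternatives. Replicates differed by more than sampling noise (chi-square per degree of freedom 1.58 in sgNT and 2.15 in sgCbfb over 9520 genes).

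Genes that reached a log2 CPM of 0 in 2 or more libraries entered limma 3.58.1 in R 4.3.3 (lmFit, then eBayes using a mean-variance trend, no covariates), in place of the study's voom on counts. Calls were made at a Benjamini-Hochberg adjusted p under 0.05. The fit was tested on simulated data. Intervals are at 95% and fold changes include the prior count, which understates changes of low genes. The members and all lists were chosen with earlier results of these data known. All 39 members are named by role, with values per library for Atf4 and for members with an unadjusted p under 0.05, and by name, from 8 related lists (171 symbols), genes past the threshold. Asns and the other genes given by library were added as examples. Positions and overlaps are from GENCODE M21 (GRCm38), promoter windows from RefSeq (GRCm38.p6, 33 of 37 windows matched to transcripts). Alternatives were no filter, a minimum of 5 CPM, quantile normalisation, median centring, ribosomal RNA genes left out of the totals, no trend, vooma, voom with library totals or median scaling, the replicate block, each library left out and a threshold of 0.01. Python 3.11.15 with pandas 2.3.3, numpy 2.4.6 and matplotlib 3.10.9 was used for sequences and figures.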

Additional observations from a re-analysis of the deposited data

How the results depend on the processing

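The counts were small and moved with the processing. The 1 member called higher, Ddit4, became 2 (with Vldlr) with a minimum of 5 CPM, vooma weights, voom on library totals and the replicate block, and 0 with quantile normalisation, without the trend and without any single library (0 to 0). The 1 member called lower, Slc6a9, became 0 with quantile normalisation, without the trend, at an adjusted p under 0.01 and without any single library (0 to 0). In limma without the trend no gene was called, though 1461 had an unadjusted p under 0.05. Over 14 alternatives Ddit4 was called in 8 (log2 fold change 0.35 to 0.65, adjusted p 9.3e-05 to 0.511) and Slc6a9 in 8 (-0.72 to -0.56, adjusted p 0.00272 to 0.526), neither changed direction, and no other member but Vldlr was called in any. Genes higher among all tested numbered 300 with a minimum of 5 CPM, 39 with quantile normalisation, 0 without the trend, 320 with the block, 103 at an adjusted p under 0.01 and 0 to 115 with a library left out. Genes lower numbered 44 with quantile normalisation, 0 without the trend, 236 with voom and median scaling, 97 at 0.01 and 0 to 86 with a library left out. Cbfb itself lost its call without the trend (limma adjusted p = 0.115) and without either sgCbfb library. Both counts were 0 without either sgCbfb library (1104 and 1169 genes at an unadjusted p under 0.05), where the lone library of the group is assumed to vary like the others. Among the related lists, Eif2s2 was called higher only with voom on library totals and Farsa only with a minimum of 5 CPM. The cause was not tested.

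Members near 0 changed sign without a call. Psph moved to -0.0169 with quantile normalisation, -0.0187 with median centring and with ribosomal RNA genes left out, -0.0092 with voom on library totals and -0.0469 with median scaling. Mthfd2 moved to -0.0021 with quantile normalisation and -0.007 with voom and median scaling, and Chac1 to 0.0029 with voom on library totals. With a library left out, ranges that crossed 0 were -0.0725 to 0.0175 for Phgdh, -0.0636 to 0.0458 for Psat1, -0.15 to 0.16 for Psph, -0.14 to 0.0298 for Shmt2, -0.0449 to 0.10 for Mthfd2, -0.18 to 0.14 for Aldh18a1, -0.0942 to 0.42 for Gpt2, -0.21 to 0.19 for Chac1, -0.13 to 0.0306 for Slc3a2, -0.0654 to 0.35 for Slc1a4, -0.39 to 0.20 for Slc1a5, -0.11 to 0.0389 for Aars, -0.12 to 0.23 for Mars and -0.28 to 0.11 for Wars. What a shared replicate number stands for is not given in the labels, and the deviations of same-numbered libraries had a correlation of -0.00417. Other pseudocounts were not run, since the values are already logs, and Pycr1 could not be fitted at a minimum of 5 CPM. Genes with few reads, such as Pycr1 and Sesn2, are limited by depth.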

Other observations

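Some lists next to the pathway hold values not given above. Of 15 tested genes of the folate cycle and glycine cleavage outside the set, 0 were called in limma, 4 had an unadjusted p under 0.05 (26.7%, against 14.9% of all tested genes) and 11 lay above 0 (73.3%, against 57%), with a median log2 fold change of 0.12. The list itself was not tested. Tyms, the thymidylate synthase gene, had 148 and 177 reads in sgNT and 242 and 184 in sgCbfb, with a log2 fold change of 0.31 (adjusted p = 0.214 from limma), and Slc25a32, the mitochondrial folate carrier gene, had 66 and 58 against 49 and 45 (-0.45, adjusted p = 0.318 from limma). Both were named after their values were seen.

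Of 17 mitochondrial tRNA synthetases 0 were called in limma, 2 (11.8%) had an unadjusted p under 0.05 and the median was 0.02. Of 29 tested genes that sense amino acids upstream of mTORC1, the complex that Ddit4 restrains, 0 were called in limma and 3 (10.3%) had an unadjusted p under 0.05, with a median near 0 (-0.0033). The smallest adjusted p among them was that of Rragc, a Rag GTPase gene, with 261 and 228 reads in sgNT and 222 and 167 in sgCbfb, without overlap of the groups (log2 fold change -0.41, 95% interval -0.64 to -0.17, adjusted p = 0.0509 from limma). Rragc was called lower in 7 of the 14 alternatives (a minimum of 5 CPM, median centring, ribosomal RNA genes left out, vooma, both voom fits and the replicate block), with an adjusted p from 0.0181 to 0.551 over all of them. It too was named after its values were seen.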
